A study of Mus musculus with 16 samples.

Results

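Collagens are the main structural proteins of the extracellular matrix, and the mouse genes that encode their chains were followed here across 12 RNA libraries of cultured germline stem cells. The members were all genes whose symbol in the deposited tables has the form of Col, a type number, a and a chain number, which gave 40 of 27128 genes. They comprised 11 fibrillar chains, 6 type IV chains of basement membranes, 3 type VI chains of beaded filaments, 4 network or anchoring-fibril chains, 9 FACIT chains (fibril-associated collagens with interrupted triple helices), 4 transmembrane chains, 2 multiplexins and Col28a1. Of the 40, 28 reached a mean of 1 CPM (counts relative to library size) over the 12 libraries and entered the comparisons, and 12 did not. Col9a1 had no count in any library.

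Collagen chains fold into triple helices in the endoplasmic reticulum, where hydroxylases and the chaperone Serpinh1 act on them, and are then trimmed and crosslinked outside the cell. Fibrillar collagens give connective tissue its tensile strength and are made in quantity by fibroblasts. Type IV collagen forms the sheet-like network of basement membranes, including the one on which spermatogonial stem cells rest in the seminiferous tubule.

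The cells came from B6;CBA-Tg(Pou5f1-EGFP)2Mnn/J mice at postnatal day 5.5, in which GFP reports the Oct4 (Pou5f1) gene. Per the labels' protocols, Oct4-positive, KIT-negative germ cells were sorted and expanded in StemPro-34 medium with GDNF, bFGF and EGF, so every library shares this origin and medium. In the feeder-removal experiment, a day 0 culture on mouse embryonic fibroblasts (MEF) was set beside cultures 4 and 9 days after transfer to Matrigel, a basement membrane extract. In the density experiment, an epithelial-like culture on Matrigel at 0.1 µg/cm2 was set beside a mesenchymal-like culture at 10 µg/cm2. In the sorting experiment, cells grown at 10 µg/cm2 were separated by GFP into low, mid and high fractions (GFP-low, GFP-mid, GFP-high). In the inhibitor experiment, cells on MEF received DMSO or UNC0638, an inhibitor of the histone methyltransferase G9a, at 0.5, 1 or 2 µM, with 48 hours of UNC0638 treatment. Each group was 1 library, so no difference has a replicate check, no p-value is given, and n = 1 holds throughout. The labels name no separate animals or cultures and describe no step that separated feeder cells from germ cells before RNA was taken.

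Library totals ran from 4335185 to 12019651 expected counts. A floor of 3 counts, which corresponded to 0.238 to 0.724 CPM, stood in for a library with 0 counts where a fold is given as a lower bound. Ratios that rest on 1 to 3 counts are given with their counts and counting interval. All 15 germ-cell markers had counts in every library, with a summed level of 2498 to 4833 TPM (a level corrected for gene length and scaled to the same total in each library). Summed Sertoli-cell markers stayed between 8.77 and 54.1 TPM, Leydig-cell markers between 0.38 and 5.06 TPM, endothelial markers between 10.7 and 28.6 TPM and smooth-muscle markers between 3.17 and 238.3 TPM, the last with Acta2 at 163.6 TPM in the mesenchymal-like library. The 20 fibroblast markers ranged from 247 to 6951 TPM, and their values are given beside the collagen results. Of these 20, Fap and Tcf21 had at most 0.11 and 0.3 TPM in any library, while in the mesenchymal-like library Lgals1 had 1731 TPM, Sparc 1338 TPM, S100a4 1239 TPM and Timp1 1014 TPM.

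Summed collagen transcripts differed most in the density and inhibitor experiments. The sum was 113.5, 108.6 and 128.5 TPM at days 0, 4 and 9 of feeder removal. It was 149.9 TPM in the epithelial-like and 1941 TPM in the mesenchymal-like culture. The sorted fractions had 79.1 TPM (GFP-low), 101.6 TPM (GFP-mid) and 147.8 TPM (GFP-high). The inhibitor experiment had 1045 TPM with DMSO and 393.7, 200.6 and 214.6 TPM at 0.5, 1 and 2 µM. The mesenchymal-like and DMSO libraries were therefore the highest, and GFP-low the lowest.

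**Figure D1:**
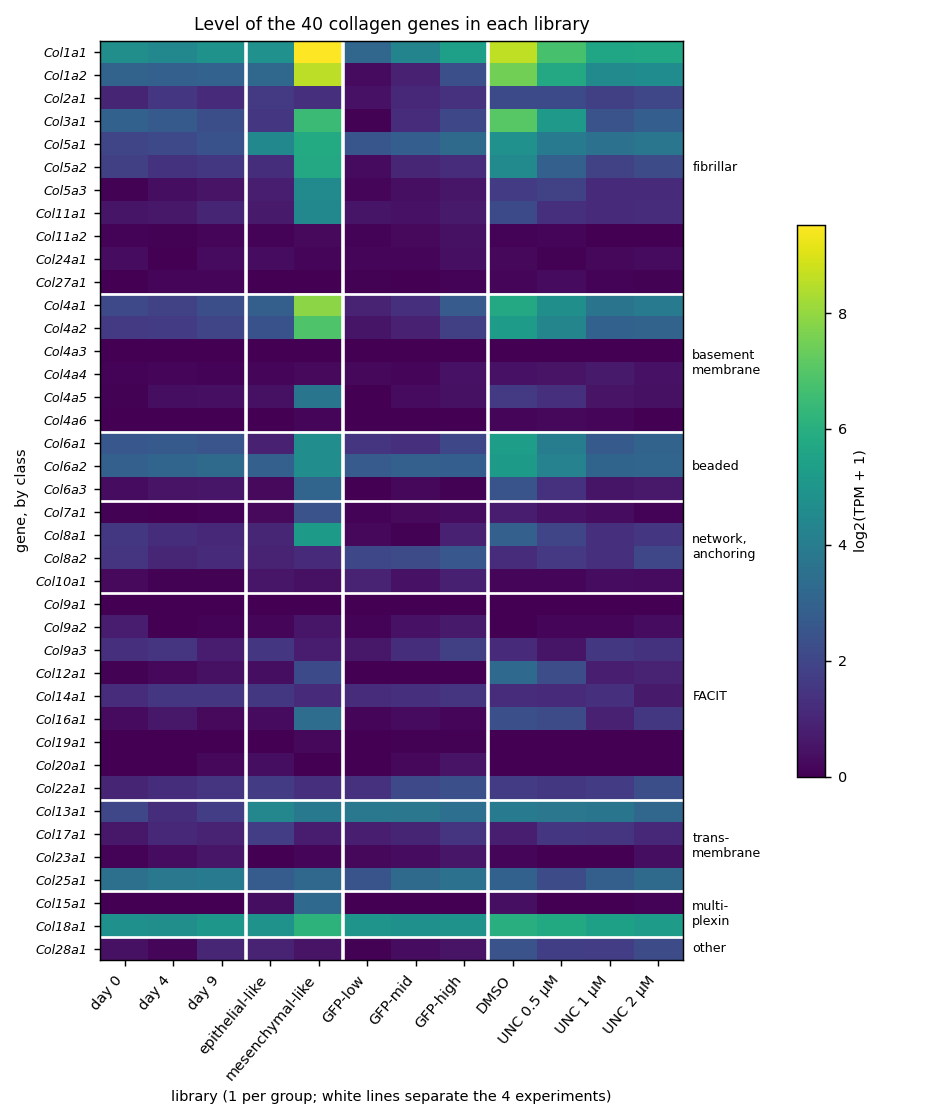
Level of each of the 40 collagen genes (rows, by class) in each of the 12 libraries (columns, 1 per group), as log2(TPM + 1). Col1a1, Col1a2 and Col4a1 were brightest in the mesenchymal-like library, at 736, 383 and 232 TPM, while Col18a1 had at least 25.2 TPM in every library.

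The makeup of the sum differed between libraries. Fibrillar chains made up 72.4% of collagen TPM with DMSO and 70.1% in the mesenchymal-like library, but 18.0% in GFP-low. Type IV chains ranged from 1.86% in GFP-low to 18.7% in the mesenchymal-like library. Transmembrane chains, which are made as membrane-bound proteins rather than secreted fibrils, summed to between 14.1 and 28.4 TPM in all 12 libraries. Col18a1, a multiplexin whose C-terminal fragment is endostatin, was the most abundant collagen in 6 libraries (days 0, 4 and 9, epithelial-like, GFP-low and GFP-mid). Col1a1, the major chain of type I collagen, led in the other 6.

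**Figure D2:**
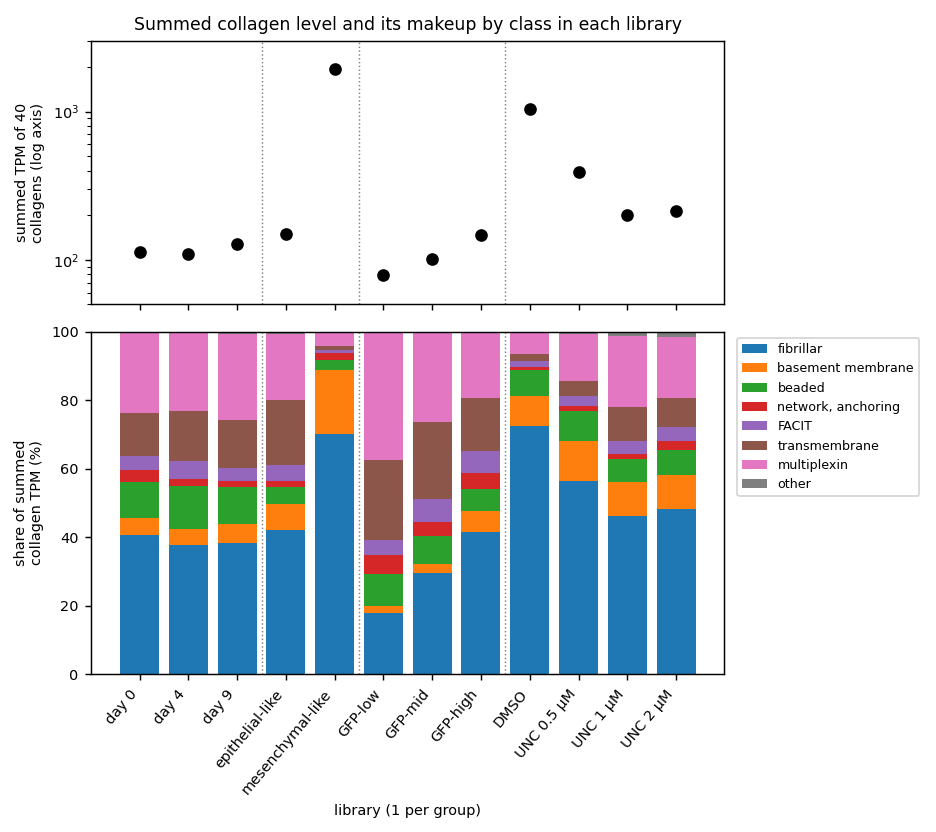
Summed TPM of the 40 collagens (upper panel, log axis) and the share of each class in that sum (lower panel, percent) in each library, with dotted lines between experiments. The fibrillar share was 18.0% in GFP-low and 72.4% with DMSO.

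Single genes varied over very different ranges. Among the 14 collagens with at least 10 counts in every library, the highest TPM exceeded 10 times the lowest for 6 genes (Col1a1, Col4a1, Col4a2, Col5a1, Col11a1 and Col13a1). Only Col18a1 of those 14 stayed within 3 times, from 25.2 TPM at day 4 to 70.4 TPM in the mesenchymal-like library. Col1a1 spanned 7.82 to 736 TPM. Of the 40 genes, 16 had their highest TPM in the mesenchymal-like library and 6 in the DMSO library (Col2a1, Col3a1, Col6a1, Col6a2, Col12a1 and Col28a1).

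Promoters of 4 members are shown to set 2 fibrillar genes, Col1a2 and Col3a1, which differed widely between libraries, beside 2 transmembrane genes, Col13a1 and Col25a1, which were not called in the density or inhibitor comparisons. Col13a1 was not steady elsewhere: it ranged from 1.36 TPM at day 4 to 20.3 TPM in the epithelial-like library and was called higher with DMSO than at day 0 (log2 ratio 2.05). Each run is the 250 bases before the start that the RefSeq promoter table gives on GRCm38.p6 (mm10), written 5′ to 3′ on the gene's strand, with matches to the CCAAT box (CCAAT), TATA box (TATAAA) and GC box (GGGCGG), on either strand, in capitals. Col1a2 lies at chr6:4505368-4505617 (plus strand), Col3a1 at chr1:45311288-45311537 (plus strand), Col13a1 at chr10:61979109-61979358 (minus strand) and Col25a1 at chr3:130180595-130180844 (plus strand). RefSeq's whole gene span begins further upstream for 2 of them, so 98 bases of the Col13a1 window and all 250 of the Col25a1 window lie inside the span, whereas the Col1a2 and Col3a1 windows end where the span begins.
Col1a2: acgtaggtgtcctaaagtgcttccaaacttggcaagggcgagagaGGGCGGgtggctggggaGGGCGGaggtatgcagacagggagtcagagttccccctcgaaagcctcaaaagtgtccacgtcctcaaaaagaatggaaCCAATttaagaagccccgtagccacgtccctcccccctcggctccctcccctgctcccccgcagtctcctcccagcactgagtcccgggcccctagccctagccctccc
Col3a1: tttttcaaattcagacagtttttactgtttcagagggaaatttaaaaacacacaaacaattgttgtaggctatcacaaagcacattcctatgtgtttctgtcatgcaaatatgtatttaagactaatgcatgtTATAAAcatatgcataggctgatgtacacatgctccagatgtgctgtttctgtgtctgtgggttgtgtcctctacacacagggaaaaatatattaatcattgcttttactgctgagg
Col13a1: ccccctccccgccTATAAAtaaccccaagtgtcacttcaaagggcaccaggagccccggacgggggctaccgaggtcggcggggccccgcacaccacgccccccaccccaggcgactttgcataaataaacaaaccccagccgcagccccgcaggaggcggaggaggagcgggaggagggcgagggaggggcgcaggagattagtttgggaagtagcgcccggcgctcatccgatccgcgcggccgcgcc
Col25a1: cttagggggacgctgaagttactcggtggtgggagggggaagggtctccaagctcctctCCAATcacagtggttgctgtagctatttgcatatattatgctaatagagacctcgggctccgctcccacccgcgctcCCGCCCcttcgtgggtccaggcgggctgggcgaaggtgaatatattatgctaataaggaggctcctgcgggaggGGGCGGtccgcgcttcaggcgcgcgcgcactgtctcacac

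The Col1a2 window held 1 CCAAT match, 109 bases before the start, and 2 GC-box matches at 205 and 188 bases. Col3a1 held a TATAAA match 117 bases before the start, in a window of 35.2% GC, against 62% for Col1a2. The windows of Col13a1 (TATAAA at 237 bases) and Col25a1 (CCAAT at 191, GC boxes at 40 and 114) held matches of the same kinds. RefSeq promoter entries were found for 32 of the 40 members, and Col1a1, Col2a1, Col4a3, Col5a2, Col9a3, Col12a1, Col14a1 and Col22a1 had none. CCAAT occurred in 12 of the 32 (37.5%, against 33.8% of all 32851 promoters), TATAAA in 5 (15.6% against 12.4%) and GGGCGG in 18 (56.2% against 32.7%). A match is a run of letters in this window and not a shown binding site.

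The type IV genes sit in head-to-head pairs. In the promoter table, the start sites of Col4a1 (minus strand) and Col4a2 (plus strand) on chromosome 8 are 21 bases apart. Col4a6 (minus strand) and Col4a5 (plus strand) on chromosome X start 1343 bases apart. The TPM of Col4a1 was 1.20 to 2.27 times that of Col4a2 across the libraries, whereas Col4a5 reached 12.02 TPM in the mesenchymal-like library and Col4a6 0.12 TPM.

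Few collagens differed by 2-fold after feeder removal. A gene was called at a log2 ratio of CPM + 1 of at least 1 in size, a 2-fold difference. At day 4 against day 0, 0 of 28 collagens were called, against 1.25% of the 14301 genes tested called higher and 1.03% called lower, and the median collagen log2 ratio was 0.10. At day 9 the counts were 2 higher and 0 lower, against 1.62% and 0.979% of all genes, with a median of 0.18. Neither the deposited TPM nor a pseudocount of 5 called any collagen at day 9 (0 with each). Days 4 and 9 share the day 0 library.

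The called genes at day 9 were low. Col12a1, a FACIT that binds type I fibrils, had 3 counts at day 0 and 28 at day 9 (0.35 TPM). Col5a3, a minor fibrillar chain, had 1 and 17 counts (0.41 TPM at day 9). Their log2 ratios were 1.24 (95% counting interval 0.86 to 4.91) and 1.08 (0.74 to 8.80). Intervals here come from the split of reads between 2 libraries, without the pseudocount, and cover counting error only, not the spread between replicates. They take each read as a separate molecule. PCR copies were not marked, so the intervals can be too narrow even for counting error.

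The abundant fibrillar chains differed by less than the call at both times. Col1a1 had 25.0, 21.0 and 28.9 TPM at days 0, 4 and 9, and Col1a2 had 7.18, 6.67 and 6.92 TPM. Col3a1, a fibrillar chain of distensible tissues, had 6.81, 5.56 and 3.91 TPM. Its log2 ratio was -0.29 (-0.62 to 0.02) at day 4 and -0.86 (-1.28 to -0.57) at day 9, the latter with an interval below 0. The fibroblast markers, as a median over 18 genes, had log2 ratios of 0.03 at day 4 and -0.23 at day 9. Single markers went both ways. At day 4 Fbn1 was called lower (-1.04), and at day 9 Postn (1.33) and Fbln2 (1.33) were called higher and Twist2 (-1.10) lower. The smooth-muscle gene Acta2 went from 44.6 TPM at day 0 to 7.48 TPM at day 9 (-2.54). Loxl2, a lysyl oxidase of the collagen crosslinking list, was higher at day 4 (4 against 51 counts, log2 ratio 1.81), and the proteoglycan Bgn was higher at day 9 (log2 ratio 1.03).

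Among the 8 comparisons within experiments, the Matrigel density comparison had the most called collagens and the largest median ratio. In the mesenchymal-like against the epithelial-like library, 19 of 28 collagens were called higher and 1 lower, against 10.7% of all genes higher and 1.78% lower. The median collagen log2 ratio was 3.91, against -0.06 over all genes tested. Called higher were 7 of 8 fibrillar, 3 of 3 type IV, 3 of 3 type VI, 2 of 3 network or anchoring, 2 of 5 FACIT and 2 of 2 multiplexin genes that passed the filter. Col15a1, a multiplexin, passed the filter only through the mesenchymal-like library (131 counts there, at most 5 in any other), so its call was fixed by the filter. Without it, 18 of 27 collagens were called higher.

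By level, type I collagen led the fibrillar class in the mesenchymal-like library. Col1a2 had 7.96 TPM in the epithelial-like and 382.6 TPM in the mesenchymal-like library, a log2 ratio of 5.60 (5.38 to 5.93). Col1a1 had 27.1 and 736 TPM, a log2 ratio of 4.81 (4.67 to 4.98). Col3a1 had 1.87 and 90.0 TPM, a log2 ratio of 5.43 (5.08 to 6.28).

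The type V and XI chains, which set the width of type I and type II fibrils, were uneven. Col5a2 had 1.39 and 52.1 TPM (log2 ratio 5.08), Col5a3 0.76 and 22.6 TPM (4.56) and Col11a1 0.63 and 21.0 TPM (4.72). Col5a1 stood apart, with 21.1 TPM already in the epithelial-like library and 55.0 TPM in the mesenchymal-like one (1.43). Col2a1, the cartilage collagen, had 2.05 and 1.45 TPM and was not called.

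Type IV and type VI chains were high in the same library. Col4a1 had 6.47 and 231.6 TPM (log2 ratio 5.17, interval 4.96 to 5.50) and Col4a2 had 4.26 and 118.6 TPM (4.78). Col4a3, Col4a4 and Col4a6, the chains of kidney, lung and smooth-muscle basement membranes, were under 0.7 TPM in every library. Among the beaded-filament chains, Col6a1 had 0.81 and 24.7 TPM and Col6a3 0.19 and 7.71 TPM, whereas Col6a2 was already at 6.64 TPM and reached 24.4 TPM.

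The other classes divided. Col8a1, a short-chain network collagen, had 1.05 and 35.5 TPM (log2 ratio 4.80). Col18a1 had 28.9 and 70.4 TPM (1.34). Col17a1, the hemidesmosome collagen of epithelia, was the 1 collagen called lower, with 2.28 and 0.71 TPM (-1.33, interval -2.76 to -0.62) from 35 and 11 counts. It was not called with the deposited TPM (-0.94) or a pseudocount of 5 (-0.79), so either left 0 collagens lower. Col13a1 (20.3 and 13.5 TPM) and Col25a1 (5.79 and 7.96 TPM), 2 transmembrane chains, were not called.

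Fibroblast markers were higher in the mesenchymal-like library as well. Their sum was 476 TPM in the epithelial-like and 6951 TPM in the mesenchymal-like culture, 16 of 18 were called higher, and their median log2 ratio was 3.94, close to the collagen median. Pdgfra (7.08 and 7.40 TPM) and Mfap2 (28.3 and 37.3 TPM) were less than 2-fold apart. Lgals1 alone had 285.2 TPM in the epithelial-like library. In bulk RNA, fewer cells of a type and less RNA per cell cannot be told apart, and the part of these markers in the collagen ratios was not tested. Relative to the fibroblast median, a centring chosen after seeing the data, 4 of 28 collagens were at least 2-fold higher and 12 at least 2-fold lower.

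**Figure D3:**
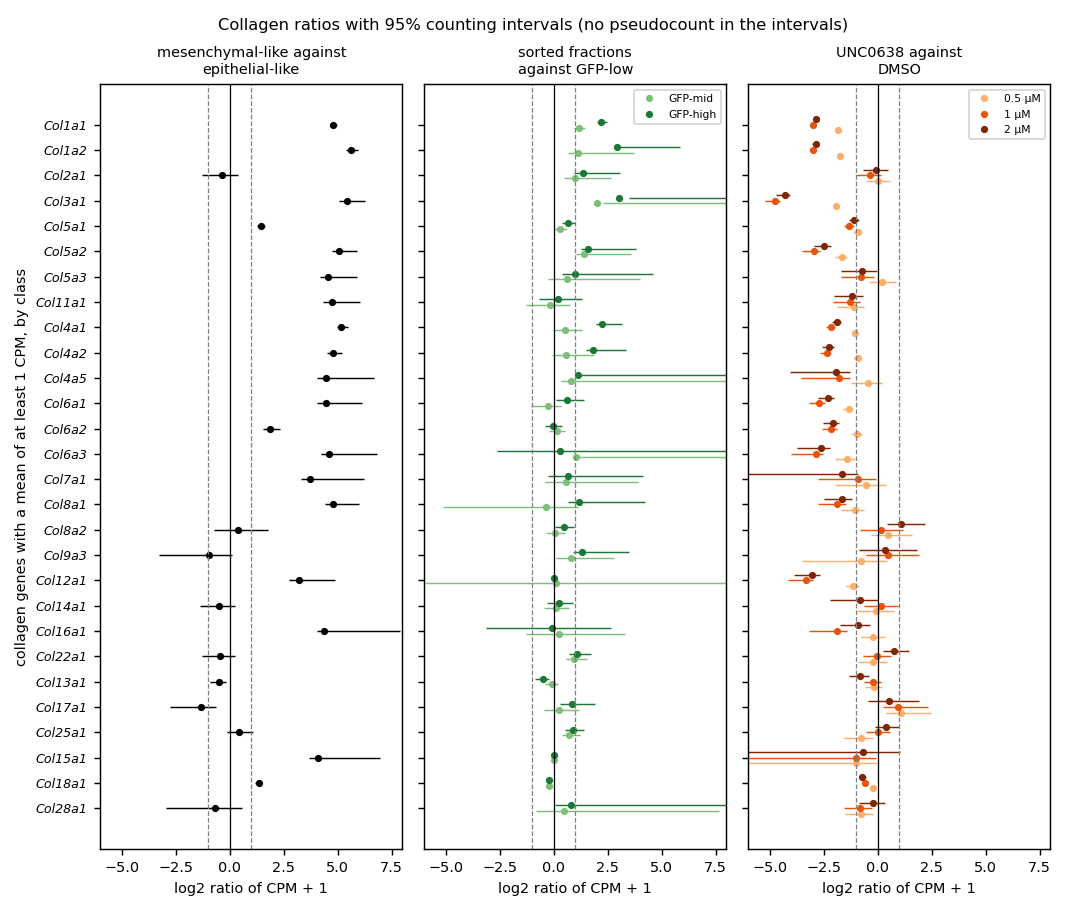
Log2 ratios of CPM + 1 (points) for the 28 collagens that passed the filter, with 95% counting intervals computed without the pseudocount (lines, which can miss the point for low genes and run past the frame); dashed lines mark 2-fold. Col1a2 sits at 5.60 for the mesenchymal-like library and Col3a1 at -4.78 for 1 µM UNC0638.

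Genes that process collagen were counted in the same way, against the 10.7% of all genes called higher and 1.78% called lower in the mesenchymal-like library. Of 13 processing and crosslinking genes tested, 12 were called higher and 0 lower. Lox, which oxidises lysines for crosslinking, went from 22.3 to 1481 CPM (log2 ratio 5.99), and Pcolce, an enhancer of procollagen C-proteinase, from 6.81 to 209.1 CPM (4.75). Of 18 modification genes, 10 were called higher, among them Serpinh1 (29.3 and 303.5 CPM, 3.33) and the prolyl isomerase Fkbp10 (35.4 and 187.4 CPM, 2.37). Small leucine-rich proteoglycans were called higher in 5 of 7, with Bgn at 14.8 and 905.2 CPM. Receptors were higher in 4 of 6 (Ddr2, Mrc2 and Itgb1 among them) and breakdown proteins in 3 of 5 (Ctsk, Mmp2 and Mmp14).

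Among the sorted fractions, 5 of 8 fibrillar and 3 of 3 type IV genes were called higher in GFP-high than in GFP-low, and 4 of 8 and 0 of 3 in GFP-mid. GFP-mid against GFP-low called 5 collagens higher and 0 lower, against 3.38% of all genes higher and 0.685% lower, with a collagen median of 0.48. GFP-high against GFP-low called 11 higher and 0 lower, against 6.94% and 2.59%, with a median of 0.82. With the deposited TPM the counts were 2 in GFP-mid and 7 in GFP-high, and with a pseudocount of 5 they were 1 and 5. Centred on the fibroblast median, GFP-high had 6. The fractions share the GFP-low library, so these counts are not independent.

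The 11 genes called in GFP-high were Col1a1, Col1a2, Col2a1, Col3a1, Col4a1, Col4a2, Col4a5, Col5a2, Col8a1, Col9a3 and Col22a1. For 10 of them GFP-mid lay between GFP-low and GFP-high, the exception being Col8a1. Col1a1 had 7.82, 18.8 and 40.8 TPM in GFP-low, GFP-mid and GFP-high, a log2 ratio for GFP-high of 2.18 (2.00 to 2.47). Col4a1 had 0.89, 1.42 and 5.65 TPM (2.23, interval 1.94 to 3.15).

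Several of these ratios rest on few reads in GFP-low. Col1a2 had 5, 32 and 107 counts (0.20, 0.85 and 4.06 TPM) and Col3a1 had 1, 45 and 77 counts (1.29 and 3.16 TPM in GFP-mid and GFP-high). For Col3a1 the log2 ratio of GFP-high was 3.03, with an interval of 3.51 to 11.3 that omits the pseudocount. Col4a5 had 0 counts in GFP-low and 11 in GFP-high, at least 3.10-fold higher against a floor of 3 counts. Col6a3 had 0 and 13 counts in GFP-low and GFP-mid, at least 2.74-fold higher.

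Even in GFP-high these levels were low beside the mesenchymal-like library from the same Matrigel density. The latter had 736 TPM of Col1a1 and 383 TPM of Col1a2. It was made in another experiment and is not labelled as sorted by GFP, so the libraries are not like for like. Summed collagen was 147.8 TPM in GFP-high, against 149.9 TPM in the epithelial-like and 1941 TPM in the mesenchymal-like library. Macrophage markers moved with the fractions: their sum was 2570, 2461 and 345 TPM in GFP-low, GFP-mid and GFP-high, against 10.2 to 56.5 TPM in the other 9 libraries, and 10 of 10 were called lower in GFP-high. Most of that sum was Lyzs, at 2239, 2073 and 298.8 TPM. Fibroblast markers summed to 260.9, 247.2 and 315.1 TPM, with a median log2 ratio of 0.11 in GFP-mid and 0.49 in GFP-high. In GFP-high 5 of 18 were called higher and 0 lower, among them Fbln2 (log2 ratio 2.79), Sparc (2.18), Fbn1 (1.74) and Pdgfrb (1.19), beside a median of 1.48 for the 8 fibrillar collagens. The proteoglycan Bgn was higher as well (1.94). Germ-cell markers summed to 4253, 3984 and 4202 TPM in GFP-low, GFP-mid and GFP-high. Of these, Gfra1 (-1.57), Etv5 (-1.46) and Ret (-1.16) were called lower in GFP-high, whereas Nanos3 had 15.3 TPM in GFP-low and 35.5 TPM in GFP-high. The part of any of these marker sets in the collagen ratios was not tested. Mmp9, a gelatinase of the breakdown list, was lower in GFP-high (131.7 and 55.5 CPM, log2 ratio -1.23), and Mmp2 was higher (16.0 and 39.4 CPM, 1.24).

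UNC0638 cultures had less collagen RNA than the DMSO culture at each dose. At 0.5 µM, 10 of 28 collagens were called lower and 1 higher, against 2.13% of all genes lower and 1.58% higher. At 1 µM, 15 were called lower and 0 higher, against 4.12% and 2.59%. At 2 µM, 15 were called lower and 1 higher, against 3.59% and 3.42%. The collagen medians were -0.85, -1.30 and -1.14, and all 3 doses share the DMSO library.

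The type I and type III chains had some of the lowest ratios to DMSO, although Col1a1 remained the most abundant collagen at each dose. Col1a1 had 386.6 TPM with DMSO and 106.9, 48.0 and 51.5 TPM at 0.5, 1 and 2 µM, with log2 ratios of -1.84, -2.98 and -2.86. Col1a2 had 179.5, 52.4, 22.1 and 23.9 TPM, with ratios of -1.76, -2.99 and -2.85. Col3a1 had 132.3, 34.0, 4.41 and 6.17 TPM, with ratios of -1.94, -4.78 (-5.25 to -4.55) and -4.31.

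Of the 16 collagens called lower at 1 or more doses, 14 had their lowest CPM at 1 µM. The other 2, Col4a5 and Col7a1, had 9 and 6 and 8 and 2 counts at 1 and 2 µM, too few to order these doses. The same limit holds for some of the 14. At 1 and 2 µM Col6a3 had 18 and 17 counts, Col8a1 27 and 25, and Col12a1 30 and 28. Differences between 1 and 2 µM were not tested for any of the 16. Col12a1 had 8.63 TPM with DMSO and 3.81, 0.73 and 0.88 TPM at the 3 doses (-1.15, -3.32 and -3.07). Col5a2 had 21.8, 6.63, 2.55 and 3.63 TPM, whereas its partner Col5a1 had 27.2, 14.1, 10.6 and 12.4 TPM. The type VI chains Col6a1 (39.1, 15.03, 5.54 and 7.26 TPM) and Col6a2 (35.2, 17.8, 7.45 and 7.67 TPM) were low at 1 and 2 µM.

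Col4a1 and Col4a2 of the basement membrane had ratios nearer 0 than Col1a1 and Col1a2 at each dose. Col4a1 had 53.0 TPM with DMSO and 25.5, 11.5 and 13.7 TPM at 0.5, 1 and 2 µM, with log2 ratios of -1.04, -2.16 and -1.89. Col4a2 had 36.7, 19.0, 6.78 and 7.27 TPM and was called lower at 1 µM (-2.37) and 2 µM (-2.25). Over the genes of each class that passed the filter, the median log2 ratios were -2.16 for the 3 type IV and -2.14 for the 8 fibrillar genes at 1 µM, and -1.92 and -1.83 at 2 µM. Summed type IV TPM at 1 µM was 21.1% of the DMSO level and summed fibrillar TPM 12.3%, the latter sum made up mostly of Col1a1, Col1a2 and Col3a1. The difference between these classes was not tested.

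Col18a1, Col13a1 and Col25a1 stayed under the 2-fold call at each dose. Col18a1 had 64.1, 53.8, 41.6 and 37.9 TPM, with log2 ratios of -0.24, -0.60 (-0.74 to -0.46) and -0.71 (-0.87 to -0.56), each with an interval below 0. Col13a1 had 14.5, 12.6, 12.1 and 7.74 TPM, with a ratio of -0.82 (-1.33 to -0.40) at 2 µM. Col25a1 had 6.79, 3.62, 6.44 and 8.68 TPM. Col17a1 was the 1 gene called higher at 0.5 µM (0.73 and 1.87 TPM, log2 ratio 1.08, from 12 and 32 counts), but not with the deposited TPM (0.73) or a pseudocount of 5 (0.59). Col8a2 was the 1 gene called higher at 2 µM (1.32 and 3.11 TPM, 1.07, from 17 and 36 counts), a call that also ended with the deposited TPM (0.82) and a pseudocount of 5 (0.66).

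Fibroblast markers were lower at every dose too as a sum and as a median, but not gene by gene. S100a4 had 218.8 TPM with DMSO and 244.1 TPM at 0.5 µM, and Thy1 had 5.71 and 5.69 TPM with DMSO and at 2 µM. Postn, in contrast, had 33.1 TPM with DMSO and 11.4, 2.66 and 2.14 TPM at 0.5, 1 and 2 µM. The marker sum was 2083 TPM with DMSO and 1254, 774.8 and 1139 TPM at the same doses. The markers had median log2 ratios of -0.93, -1.72 and -1.08, and their part in the collagen ratios was not tested. After centring on that median, 1 collagen was at least 2-fold lower and 3 at least 2-fold higher at 0.5 µM, 6 collagens were at least 2-fold lower and 9 at least 2-fold higher at 1 µM, and 9 lower and 5 higher at 2 µM. Germ-cell markers had median ratios of 0.16, 0.02 and -0.10.

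The lists of collagen processing genes are set beside the shares of all genes called lower, which were 2.13%, 4.12% and 3.59% at 0.5, 1 and 2 µM. Called lower were 5, 9 and 7 of 13 processing and crosslinking genes at 0.5, 1 and 2 µM, with Lox at 465.5 CPM with DMSO and 193.5, 59.7 and 93.7 CPM at the 3 doses. Of 18 modification genes, 1, 2 and 3 were called lower, Serpinh1 at each dose (99.8, 47.4, 30.2 and 38.9 CPM). Proteoglycans were lower in 3, 5 and 4 of 7, with Dcn at 128.2, 61.0, 12.04 and 31.4 CPM. Receptors were lower in 1, 2 and 2 of 6, and breakdown proteins in 3, 3 and 2 of 5, with Mmp2 at 168.3, 63.0, 34.6 and 30.9 CPM.

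All 15 collagens called lower at 1 µM were among the 19 called higher in the mesenchymal-like library, a share of 100% of the first list and 78.9% of the second, and these comparisons share no library. Of the 28 collagens tested, 67.9% were in the second list to begin with. Over all 14301 genes, 396 of the 589 called lower at 1 µM were among the 1527 called higher in the mesenchymal-like library (67.2% and 25.9%). The 4 others of the 19 were Col5a3, Col7a1, Col15a1 and Col18a1. The DMSO culture itself was far above the day 0 culture, although both were on MEF. Against day 0 it had 22 of 28 collagens called higher and 0 lower, against 12.2% and 7.22% of all genes, with a collagen median of 2.53 and a fibroblast median of 2.17. Centred on that fibroblast median, 7 collagens were at least 2-fold higher and 7 at least 2-fold lower. That comparison crosses experiments and is given only as a description.

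Partner chains of 1 collagen type were compared within each library. The TPM of Col1a1 over Col1a2 was 1.92 in the mesenchymal-like library, 2.04 to 2.18 in the inhibitor experiment, and 3.15 to 4.18 in the feeder-removal libraries. It was 10.1 (8.23 to 12.4) in GFP-high, 22.1 (15.5 to 32.5) in GFP-mid and 39.1 (16.4 to 121.9) in GFP-low, where Col1a2 had 5 counts. Col4a1 over Col4a2 stayed between 1.20 and 2.27 in the 11 libraries with at least 20 counts of each. Col5a1 over Col5a2 was 15.2 in the epithelial-like and 1.05 in the mesenchymal-like library, and 1.25 with DMSO, 2.13, 4.17 and 3.41 with the inhibitor. In the sorted fractions it was 22.1 (10.5 to 55.9) in GFP-low, where Col5a2 had 7 counts, 6.03 in GFP-mid and 6.76 in GFP-high. Col6a1 over Col6a2 was 0.12 (0.053 to 0.246) in the epithelial-like library, from 9 Col6a1 counts, and 1.11 with DMSO.

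**Figure D4:**
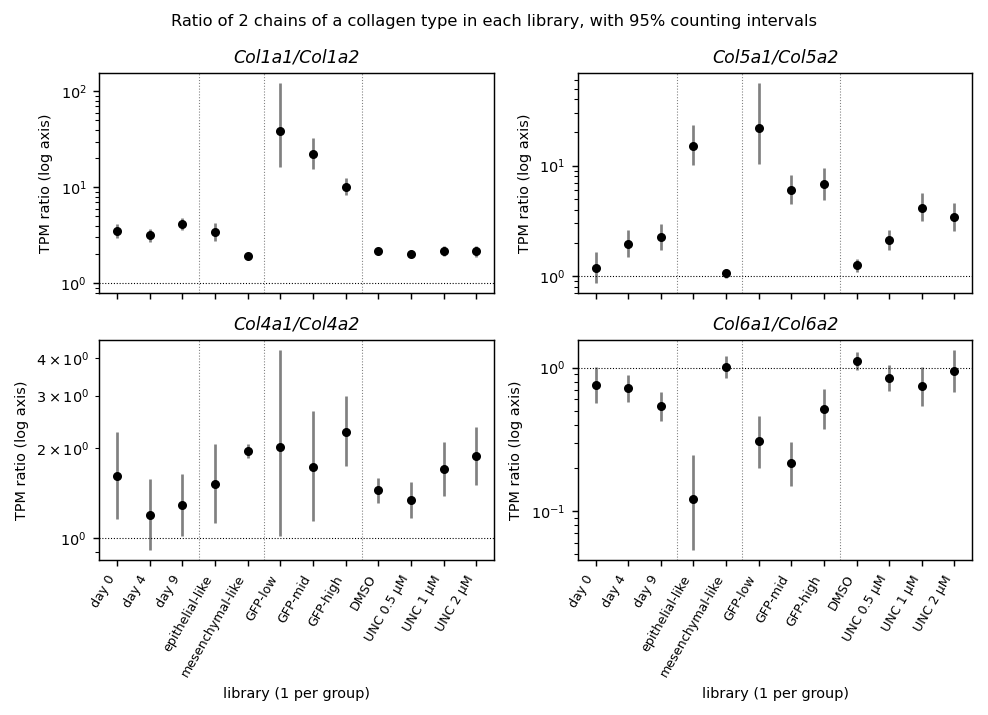
TPM ratio (log axis) of 2 partner chains in each library, for types I, V, IV and VI, with 95% counting intervals; dotted lines separate the experiments and mark a ratio of 1. The type I and type V ratios were highest in GFP-low, at 39.1 and 22.1 from 5 and 7 counts of the second chain, and the type V ratio was 15.2 in the epithelial-like library.

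Across the 12 libraries, after centring log2(CPM + 1) within each experiment, the non-collagen genes most like Col1a1 among 9582 with a mean of at least 10 CPM were Mmp2 (Pearson r = 0.989), Sparc (0.979), Osmr, Lama4 and Tnc. The genes most like Col4a1 were Sparc (0.996), Slc44a2, Lamb1-1, Adamts1 and Os9. Mmp2 is a gelatinase, Sparc a collagen-binding glycoprotein that is also on the fibroblast list, and Lamb1-1 a laminin chain. These correlations are descriptions over 12 libraries and carry no p-value, since both genes of a pair are read from the same libraries and take on each library's depth and composition. Centring also makes the 2 density libraries mirror values, so the 12 values are not independent. For Col1a1 the density log2 ratio was 4.81, against -0.26 and 0.08 at days 4 and 9. Density therefore weighs more in its r than feeder removal does.

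**Figure D5:**
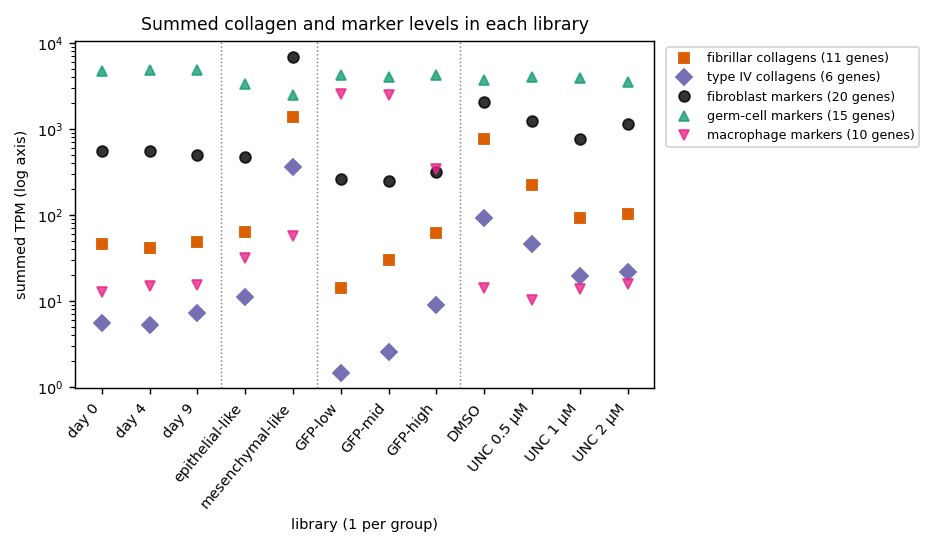
Summed TPM (log axis) of fibrillar and type IV collagens and of the fibroblast, germ-cell and macrophage marker lists in each library; dotted lines separate the experiments. Fibroblast markers reached 6951 TPM in the mesenchymal-like library, and macrophage markers 2570 TPM in GFP-low.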

How the data were processed

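RNA libraries were made by a modified Smart-seq2 procedure, per the labels' protocols. RSEM, Trim Galore and mm10 are named in the submitters' processing notes, without versions. The deposited tables give, per the file headers, an expected count (RSEM's estimate, not normalized) and a TPM (scaled by the authors for gene length and to a fixed total) for 27128 genes. The FPKM column and the 4 ATAC libraries were not analysed here. Expected counts were rounded, and 8.52% to 10.7% of genes per library carried a fractional estimate, as reads split between genes give. No 2 libraries were identical.

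CPM used TMM factors (0.912 to 1.07) from edgeR 4.0.16 in R 4.3.3. The 14301 genes whose CPM averaged 1 or more across the 12 libraries were compared as log2 ratios of CPM + 1, and 2-fold was the call. The pseudocount of 1 understates low genes. Intervals are 95% Clopper-Pearson. Levels between genes use TPM. Figures used matplotlib 3.10.9, and calculations scipy 1.17.1, pandas 2.3.3 and numpy 2.4.6 in Python 3.11.15.

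The members and gene lists were chosen with earlier results of these data known. Any collagen could be named, and the 16 that reached 10 TPM were to have their level in each library of an experiment where they are described. Other levels were added where a result turned on them. The rule named called collagens with at least 10 counts in the higher library, up to 10 per comparison. More were named in the density, GFP-high and inhibitor comparisons, chosen after their values were seen. List genes needed at least 50 counts, up to 5 per list. Likeness used the 10 genes with the highest r. Of the lists, P3h4 and Mia3 (modification) and Esam (endothelial) were not found. Promoters came from the RefSeq table of GRCm38.p6. Alternatives were DESeq2 1.42.0 size factors, the deposited TPM, a pseudocount of 5 and no filter, plus centring on the fibroblast markers, which was added after seeing the data.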

Additional observations from a re-analysis of the deposited data

How the results depend on the processing

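With 1 library per group, no result has a replicate check and depth limits low genes. DESeq2 size factors left all 9 counts of collagens at least 2-fold apart within 1.5 times of the reported ones. The deposited TPM shifted the median of all genes by 0.12 at day 9 and 0.15 in GFP-high, and gave 0 collagens at day 9 (2 reported), 2 in GFP-mid (5) and 7 in GFP-high (11). A pseudocount of 5 gave 0, 1 and 5 for the same comparisons, and no filter gave 2 at day 4 (0 reported). The cause was not tested, but a larger pseudocount shrinks low genes by construction.

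Centring on the fibroblast-marker median was chosen after seeing the data and subtracts a constant from each comparison. It gave 4 collagens at day 9, 6 in GFP-high, 4 at 0.5 µM (11 reported) and 14 for DMSO against day 0 (22 reported), and 14 called ratios took the opposite sign. For the mesenchymal-like library these were Col12a1 (-0.72), Col18a1 (-2.60), Col5a1 (-2.50), Col6a2 (-2.07) and Col7a1 (-0.20). They were Col11a1 (0.44) and Col5a1 (0.40) at 1 µM and Col5a1 (0.002) at 2 µM. For DMSO against day 0 they were Col13a1 (-0.12), Col18a1 (-0.92), Col22a1 (-1.15), Col2a1 (-0.62), Col7a1 (-0.30) and Col8a1 (-0.56). Col7a1 had 18 counts with DMSO and 2 at day 0, with a counting interval of 1.73 to 6.94 before centring. No called ratio took the opposite sign under the other 4 alternatives.

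No paired analysis was possible because each RNA group has 1 library; numbered replicates exist only for the ATAC libraries, which were not analysed here.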
